A study of Homo sapiens with 8 samples.

Results

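Serine synthesis and the folate one-carbon cycle turn a glycolytic intermediate into serine, glycine and the one-carbon units that cells use to build purines and thymidylate. PHGDH, PSAT1 and PSPH carry out the successive steps from 3-phosphoglycerate to serine. The hydroxymethyltransferases then move a carbon from serine to tetrahydrofolate, SHMT1 in the cytosol and SHMT2 in mitochondria, and the MTHFD enzymes interconvert the oxidation states of this unit in the same compartments. In many proliferating cells the mitochondrial arm, with SHMT2, MTHFD2 and MTHFD1L, releases formate that the trifunctional MTHFD1 uses in the cytosol, and ALDH1L2 oxidises the mitochondrial unit to CO2. Expression of these enzymes was followed after loss of the negative elongation factor NELF, a complex of RNA polymerase II pausing.

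The 9 enzymes PHGDH, PSAT1, PSPH, SHMT1, SHMT2, MTHFD1, MTHFD1L, MTHFD2 and ALDH1L2 were taken by name and matched by Ensembl identifier, 9 of the 60725 genes in the count table. RNA came from HAP1, a near-haploid human line derived from a chronic myeloid leukaemia, in a single clone (SC9) that expresses the repressor fusion dCas9-KRAB in every group. The 3 control libraries carried a guide RNA against ADAM22, a gene described as silent in HAP1, and 3 libraries carried a guide RNA against NELFE and 2 against NELFB, all collected 144 h after lentiviral transduction and puromycin selection. Each library held 22037423 to 24444185 reads counted on genes, without regard to strand. The knockdown libraries are described as independent biological replicates and the control libraries carry the same kind of replicate label, but whether each came from a separate culture is not detailed, so a p-value measures the spread between these libraries.

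Marker levels were set beside what is known of the line, and they cannot by themselves establish its identity. Of 6 haematopoietic genes, which HAP1 is known to have largely lost, PTPRC, SPN, CD33, SPI1 and GATA1 had between 0 and 9 reads in any library. CD34, a progenitor surface marker, had 1 to 3 reads in control libraries and 6 to 67 in knockdown libraries (edgeR adjusted p = 0.0142). BCR and ABL1, the partners of the leukaemia fusion, were at 21.1 ± 0.308 and 20.6 ± 3.17 CPM (normalized read counts scaled to a common library size, SD, n = 3) in control cells. ABL1 rose in the pooled comparison, from 18.3, 24.2 and 19.2 CPM in control libraries to 45.2, 42.4 and 28.3 CPM under the NELFE guide RNA and 51.2 and 45.2 CPM under the NELFB guide RNA, with every knockdown library above every control library (log2 fold change 1.05, edgeR adjusted p = 0.0019). BCR was not called (0.30, edgeR adjusted p = 0.117). Counts per gene do not show the fusion itself. Libraries of a group were not equally alike. Control replicate 3 and NELFE knockdown replicate 3 deviated from their group means together (Pearson r = 0.682 across genes, which are not independent replicates), so results are also given without this pair of libraries.

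NELFE mRNA was at 50.6, 49.5 and 47.8 CPM in the control libraries and at 2.41, 2.38 and 2.98 CPM under its own guide RNA. Its log2 fold change was -4.26 ± 0.11 (SE, adjusted p = 2.15e-08 by the quasi-likelihood test of edgeR, p-values being corrected over all genes by the Benjamini-Hochberg method). NELFB mRNA was at 74.6, 72.8 and 78.7 CPM in control cells and at 3.08 and 2.76 CPM under its own guide RNA, a log2 fold change of -4.69 ± 0.11 (SE, edgeR adjusted p = 4.02e-09). In the NELFE knockdown NELFB mRNA was at 63.5, 64.2 and 64.0 CPM, with a log2 fold change of -0.24 (edgeR adjusted p = 0.0481). That call held in 1 of the 8 fits without 1 library, the fit without control replicate 1, and the adjusted p reached 0.146 without control replicate 3. In the NELFB knockdown NELFE mRNA was at 61.4 and 56.6 CPM, above every control library. It was not called there (log2 fold change 0.26, edgeR adjusted p = 0.0819). The targeted gene was lower than every control library in each library that carried its guide RNA.

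When the 5 knockdown libraries were set against the 3 control libraries, 8 of the 9 enzymes fell and 0 rose. Among all 16367 genes tested, 12.7% were called lower and 13.3% higher. The losses ranged from 47.3% for MTHFD2 to 18.9% for SHMT1, and ALDH1L2, which is barely expressed here, was not called. All 9 passed the filter on low counts. The median log2 fold change of the 9 enzymes was -0.49, against -0.0021 over all genes tested. In 7 of the 9 enzymes every knockdown library lay below every control library, an arrangement found for 14.0% of genes tested. The enzymes, and the gene lists used below, were chosen with earlier results of these data known. Counts of called genes therefore describe these sets and do not test them against the shares over all genes. In bulk RNA, fewer expressing cells and less RNA per cell cannot be told apart.

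**Figure D1:**
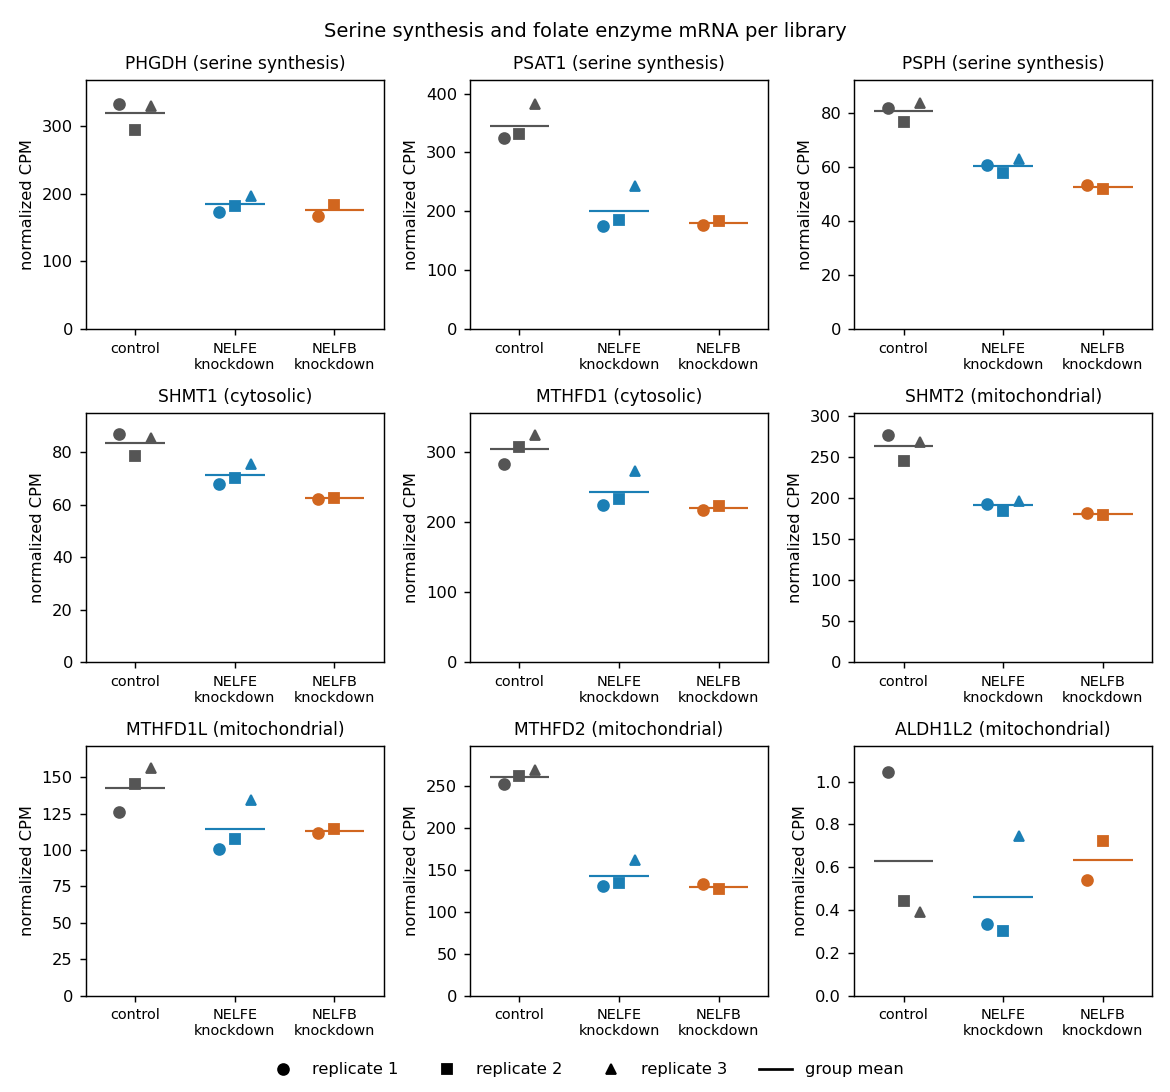
Normalized read count (CPM, vertical axis, each panel from 0 on its own scale) of the 9 enzymes in each library, by group; symbols give the replicate number and lines the group mean. Control libraries lie above all knockdown libraries in 7 panels, the groups overlap for MTHFD1L and ALDH1L2, and NELFE knockdown replicate 3 is the highest of the 5 knockdown libraries in all 9 panels.

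Before the knockdowns are compared, levels in control cells were ranked per transcript length, as TPM, a length-scaled relative abundance, over the canonical GENCODE transcript. PHGDH was at 406 ± 30.1 TPM and PSAT1 at 373 ± 26.4 TPM (SD, n = 3), with overlapping ranges. SHMT2 followed at 291 ± 21.3 TPM, MTHFD1 at 230 ± 10.8 TPM and MTHFD2 at 141 ± 1.36 TPM, each range apart from the next. MTHFD1L and PSPH overlapped at 98.2 ± 8.43 and 97.4 ± 4.39 TPM, above SHMT1 at 78.6 ± 4.83 TPM. ALDH1L2 came last at 0.202 ± 0.121 TPM. The order depends on the length assigned to a gene. A second length was the union of all exons annotated in GENCODE v44. Reads were counted on Gencode v24 genes, so this union may hold bases that were not counted. With the union exon length, PSAT1 was first at 641 TPM, SHMT2 was at 235 TPM and PHGDH at 142 TPM, and MTHFD1 moved to 72.0 TPM, below MTHFD2 at 93.4 TPM.

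The place of MTHFD2 relative to MTHFD1L depended on that length. With canonical lengths MTHFD2 lay above MTHFD1L in control cells and no longer did in the knockdowns. In the NELFE knockdown MTHFD1L was at 81.0 ± 9.48 and MTHFD2 at 79.3 ± 6.01 TPM (SD, n = 3), with overlapping ranges. In the NELFB knockdown MTHFD1L, at 81.5 ± 2.22 TPM, lay above MTHFD2 at 73.5 ± 1.19 TPM (SD, n = 2). With the union exon length MTHFD1L was above MTHFD2 in control cells already, at 119 against 93.4 TPM.

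All 3 enzymes of serine synthesis fell. PHGDH, which oxidises 3-phosphoglycerate and commits it to serine (ENSG00000092621.11, GRCh38 chromosome 1, 119648411 to 119744218), was at 332, 293 and 329 CPM in control libraries. It was at 174, 182 and 197 CPM in the NELFE knockdown and at 167 and 184 CPM in the NELFB knockdown. The knockdown libraries lay well under the lowest control library, with no overlap. PHGDH fell by 43.2% in the pooled comparison, a log2 fold change of -0.82 ± 0.070 (SE, edgeR adjusted p = 7.34e-05), and 1.64% of all genes tested had a lower value.

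PSAT1, the aminotransferase of the pathway (ENSG00000135069.13, chromosome 9, 78297125 to 78330093), was at 324, 331 and 382 CPM in control libraries. The NELFE knockdown libraries had 176, 186 and 243 CPM and the NELFB knockdown libraries 177 and 184 CPM. NELFE knockdown replicate 3 stood above the other 4 knockdown libraries but below all controls. The pooled log2 fold change was -0.84 ± 0.11 (SE, edgeR adjusted p = 0.000418). Without control replicate 3 and NELFE knockdown replicate 3 it was -0.86 (edgeR adjusted p = 8.38e-06).

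PSPH, the phosphatase that releases serine (ENSG00000146733.13, chromosome 7, 56011051 to 56051604), changed less. It was at 81.7, 76.7 and 83.8 CPM in control libraries, 60.9, 57.7 and 63.0 CPM in the NELFE knockdown and 53.3 and 51.7 CPM in the NELFB knockdown. Here the groups formed 3 separate steps, with the NELFB libraries lowest. The pooled log2 fold change was -0.50 ± 0.078 (SE, edgeR adjusted p = 0.00143).

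The cytosolic folate enzymes fell by smaller amounts. SHMT1 (ENSG00000176974.17, chromosome 17, 18327860 to 18363563) was at 86.6, 78.5 and 85.2 CPM in control libraries. It was at 67.9, 70.2 and 75.3 CPM in the NELFE knockdown and at 62.2 and 62.7 CPM in the NELFB knockdown. The highest knockdown library came close to the lowest control library without reaching it. The pooled log2 fold change was -0.30 ± 0.077 (SE, edgeR adjusted p = 0.0147), and without control replicate 3 the call was narrowly lost (edgeR adjusted p = 0.051). Other genes, among them SMCR8 on the opposite strand, share 3.85% of its annotated exon bases.

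MTHFD1, the trifunctional cytosolic enzyme (ENSG00000100714.15, chromosome 14, 64388031 to 64463457), was at 283, 308 and 325 CPM in control libraries. The NELFE knockdown had 225, 233 and 273 CPM and the NELFB knockdown 218 and 223 CPM, again without overlap. Its pooled log2 fold change was -0.38 ± 0.082 (SE, edgeR adjusted p = 0.00681). Of its annotated exon bases, 11.1% are shared with genes on the opposite strand, among them ZBTB25, and the strand of reads there was not used in counting.

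The fitted changes of the mitochondrial enzymes covered a wide range. MTHFD2, the mitochondrial dehydrogenase and cyclohydrolase (ENSG00000065911.11, chromosome 2, 74186172 to 74217565), was at 252, 262 and 269 CPM in control libraries. It was at 131, 135 and 162 CPM in the NELFE knockdown and at 133 and 127 CPM in the NELFB knockdown. No other enzyme of the 9 had a larger fitted decrease, with a log2 fold change of -0.92 ± 0.079 (SE, edgeR adjusted p = 7.34e-05), and 1.11% of all genes tested had a lower value. Genes on the opposite strand, among them SLC4A5, share 14.2% of its annotated exon bases.

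SHMT2 (ENSG00000182199.10, chromosome 12, 57229573 to 57234935) was at 277, 245 and 269 CPM in control libraries, 193, 185 and 197 CPM in the NELFE knockdown and 182 and 180 CPM in the NELFB knockdown. The knockdown libraries were tightly grouped and well below the controls. The pooled log2 fold change was -0.49 ± 0.063 (SE, edgeR adjusted p = 0.000474), close to that of PSPH. Genes on the opposite strand, among them NDUFA4L2, share 8.38% of its annotated exon bases.

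MTHFD1L, the mitochondrial formate-releasing synthetase (ENSG00000120254.15, chromosome 6, 150865679 to 151101887), was at 126, 145 and 156 CPM in control libraries. It was at 101, 107 and 135 CPM in the NELFE knockdown and at 112 and 114 CPM in the NELFB knockdown, so that NELFE knockdown replicate 3 exceeded the lowest control library. The pooled log2 fold change of -0.32 ± 0.097 (SE, edgeR adjusted p = 0.0304) passed the threshold in 2 of the 8 fits that left out 1 library and in each of the other 7 alternatives, among them the replicate block (edgeR adjusted p = 0.00274) and the removal of control and NELFE knockdown replicates 3 together (edgeR adjusted p = 0.011). The adjusted p was 0.0986 without control replicate 2, 0.124 without control replicate 3, and between 0.0611 and 0.0684 without NELFE knockdown replicate 1 or 2 or NELFB knockdown replicate 1 or 2.

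ALDH1L2, which produces NADPH as it oxidises formyl-tetrahydrofolate in mitochondria (ENSG00000136010.13, chromosome 12, 105019784 to 105107643), had only 26, 10 and 9 reads in control libraries. It had 8, 7 and 16 reads in the NELFE knockdown and 13 and 17 in the NELFB knockdown. The ranges of the groups overlapped, and the log2 fold change of -0.27 had a 95% interval from -1.16 to 0.63 (edgeR adjusted p = 0.668). A change of the size seen for MTHFD2 lies within that interval and was not detectable at this depth.

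Promoter sequence was read for the enzymes that move together. RefSeq windows from 250 bases before to 50 bases after the start (GRCh38.p14) were at hand for 6 of the 9 enzymes, and not for PSPH, SHMT2 and ALDH1L2. They were searched on both strands for TGATGNAA, the core of the element bound by ATF4 with a C/EBP partner, and for CACGTG, the E-box bound by MYC with MAX. The first occurred in 1 of the 6 windows and in 3.67% of all 27305 promoters of this length, the second in 2 of the 6 and in 7.43%. The matches are shown because they fall in MTHFD1 and MTHFD1L, while the windows of PHGDH, PSAT1, SHMT1 and MTHFD2 held neither string. Capitals mark the motif, and positions count back from the RefSeq start. The MTHFD1L match to TGATGNAA lies at -129 (chr6:150866346-150866375, plus strand), that to CACGTG at -154 (chr6:150866321-150866348, plus strand), and that of MTHFD1 at -15 (chr14:64388327-64388354, plus strand).
MTHFD1L TGATGNAA: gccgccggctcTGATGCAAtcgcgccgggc
MTHFD1L CACGTG: acgcccggctcCACGTGcgcagccggcc
MTHFD1 CACGTG: cagtccctaagCACGTGggttgggttgt
The MTHFD1L window is that of a RefSeq start at 150866486, downstream of the start of the canonical GENCODE transcript at 150865702. These matches are strings in a window, and binding was not measured.

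Each knockdown was then taken on its own. In the NELFE knockdown 6 of the 9 enzymes fell and 0 rose, where 7.04% of the 16852 genes tested were called lower and 7.92% higher. In the NELFB knockdown 7 fell and 0 rose, where 8.88% were called lower and 10.6% higher. Both comparisons use the same control libraries. PHGDH, PSAT1, PSPH, SHMT2, MTHFD1 and MTHFD2 were called in each. The log2 fold change of MTHFD2 was -0.88 in the NELFE knockdown (edgeR adjusted p = 0.00049), and MTHFD2 fell by 50.1% under the NELFB guide RNA (edgeR adjusted p = 0.000256). That of PHGDH was -0.79 (adjusted p = 0.000565) and -0.86 (adjusted p = 0.000436), and that of PSAT1 was -0.78 (adjusted p = 0.00357) and -0.93 (adjusted p = 0.00193).
SHMT1 passed the threshold in the NELFB knockdown (log2 fold change -0.42, adjusted p = 0.00828, edgeR) and not in the NELFE knockdown (-0.23, adjusted p = 0.0607). The SHMT1 call in the NELFB knockdown was lost without NELFB knockdown replicate 1 or 2 (edgeR adjusted p = 0.0933 and 0.0623), as was that of MTHFD1 (0.124 and 0.0704). MTHFD1L had -0.32 (edgeR adjusted p = 0.0889) and -0.33 (adjusted p = 0.101). An alternative took the replicate number as a block over all libraries. Same-numbered control and NELFE libraries deviated together unevenly (r = 0.462, 0.104 and 0.682), and control and NELFB libraries did not (-0.067 and -0.027). With that block SHMT1 and MTHFD1L were called in the NELFE knockdown (adjusted p = 0.02 for SHMT1 and 0.00312 for MTHFD1L, edgeR), 8 of the 9 enzymes in all. Lower calls over all genes then numbered 2355 rather than 1186. The MTHFD1 call in the NELFE knockdown (-0.33, adjusted p = 0.0355, edgeR) held in 2 of the 8 fits without 1 library, where its adjusted p reached 0.138 without NELFE knockdown replicate 1, 0.13 without NELFE knockdown replicate 2, 0.103 and 0.099 without control replicates 2 and 3, and 0.0721 and 0.0655 without NELFB knockdown replicates 1 and 2.

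**Figure D2:**
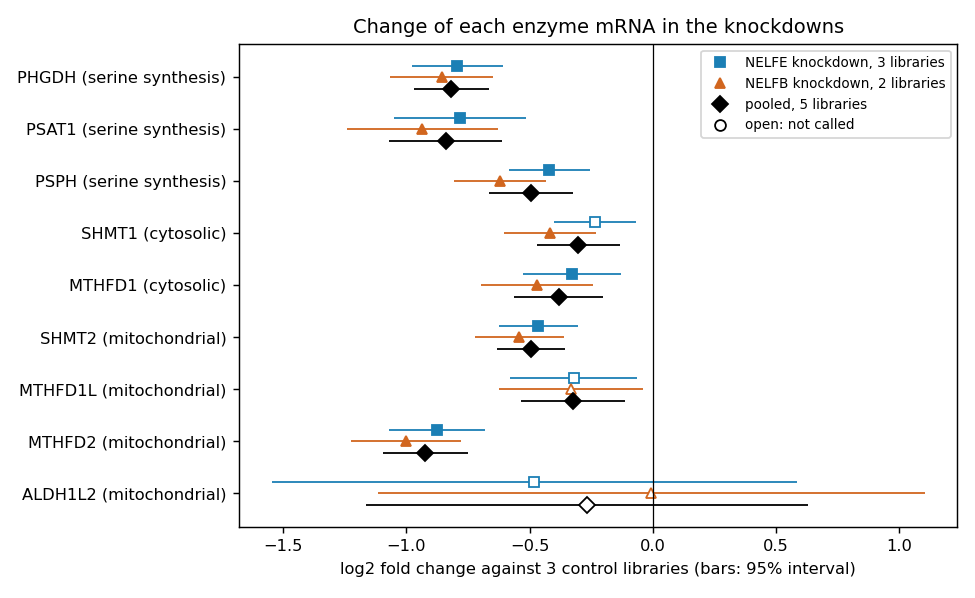
Log2 fold change of each enzyme mRNA against the 3 control libraries (horizontal axis) in the NELFE knockdown, the NELFB knockdown and both pooled, with 95% intervals; open symbols were not called at an adjusted p of 0.05. MTHFD2, PSAT1 and PHGDH lie farthest to the left with values at or below -0.78, and the wide ALDH1L2 intervals cross 0.

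The knockdowns were compared with each other directly. None of the 9 enzymes was called different by edgeR (0.315% of all genes tested were), 1 of them had an unadjusted p under 0.05, as had 863 of all 16852 genes tested, and DESeq2 called 0. For 8 of the 9 the NELFB knockdown had the lower mean. For PSPH, the gene with that p (0.0356, adjusted p = 0.92, edgeR), the NELFE value exceeded the NELFB value by 0.20 on the log2 scale, with a 95% interval from 0.016 to 0.38. For MTHFD2 the difference was 0.13 (-0.093 to 0.35) and for PHGDH 0.064 (-0.14 to 0.27). Among the 8 well-expressed enzymes PSAT1 had a difference of 0.15 with an interval from -0.15 to 0.45, so a difference of that size in PSAT1 was not detectable with these libraries.

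The design also allows each mitochondrial enzyme to be set against its cytosolic counterpart within a library, where the scaling of the library cancels. The log2 ratio of SHMT2 to SHMT1 was 1.677, 1.643 and 1.658 in control libraries, 1.504, 1.398 and 1.384 in the NELFE knockdown and 1.545 and 1.523 in the NELFB knockdown. The ratio was lower in every knockdown library than in every control library. The pooled difference was -0.19 (exact two-sided permutation test over libraries, p = 0.0357 with the smaller tail doubled, the smallest that the 56 divisions of 5 and 3 libraries allow in this form). Adjusted over the 3 ratios tested it was 0.0536, the value that any 2 fully separated ratios of 3 would have, so that missing the threshold says nothing about the size of the change. A second form, added after the values were seen, counted the share of divisions with at least as large an absolute difference. Its exact permutation p was 0.0179, again the smallest possible, and 0.0268 when adjusted. The 56 divisions take no account of the replicate numbers, which pair control with NELFE libraries in these data. Divisions kept within numbers would be fewer and their smallest p larger, a limit on the p-values of all 3 ratios. As a share of the summed TPM of this pair, SHMT2 went from 78.7% ± 0.198 in control cells to 75.9% ± 0.824 (SD, n = 3 each) and 77.2% ± 0.186 (SD, n = 2).

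The log2 ratio of MTHFD2 to MTHFD1 was -0.16, -0.24 and -0.27 in control libraries, -0.78, -0.79 and -0.76 in the NELFE knockdown and -0.71 and -0.81 in the NELFB knockdown. These groups were far apart relative to the spread within them. The pooled difference was -0.54 (exact permutation p = 0.0357 and adjusted 0.0536 with the tail doubled, 0.0179 and 0.0268 by absolute difference), so that the ratio in knockdown cells was 0.686 times that in control cells. MTHFD2 made up 38.0% ± 0.890 of the summed TPM of the pair in control cells, 29.5% ± 0.262 in the NELFE knockdown (SD, n = 3 each) and 29.7% ± 0.996 in the NELFB knockdown (SD, n = 2). These shares rest on canonical transcript lengths. With the union exon length MTHFD2 was above MTHFD1 in control cells, at 93.4 against 72.0 TPM, and below it in the NELFE knockdown, at 51.6 against 58.2 TPM, and in the NELFB knockdown, at 47.2 against 52.7 TPM.

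MTHFD1L, which works in mitochondria beside MTHFD2, was set against the same cytosolic enzyme. Its log2 ratio to MTHFD1 was -1.17, -1.08 and -1.06 in control libraries, -1.16, -1.12 and -1.02 in the NELFE knockdown and -0.96 and -0.97 in the NELFB knockdown. NELFE libraries overlapped the control range and the NELFB libraries lay above it. The pooled difference was 0.059 (exact permutation p = 0.321 in either form, adjusted 0.321). Of the 3 ratios, those of SHMT2 and MTHFD2 separated control from knockdown libraries completely, and that of MTHFD1L did not separate them. For SHMT2 and MTHFD2 the call rested on the form of the test and on divisions that ignore the replicate numbers. Differences among the ratios were not tested. The ratio of ALDH1L2 to its cytosolic counterpart ALDH1L1 was not tested, because ALDH1L1 had only 3 to 10 reads in any library. With the knockdowns taken singly, the exact permutation test cannot reach a p of 0.05 with 3 libraries against 3 or 2 against 3, and it was not run.

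**Figure D3:**
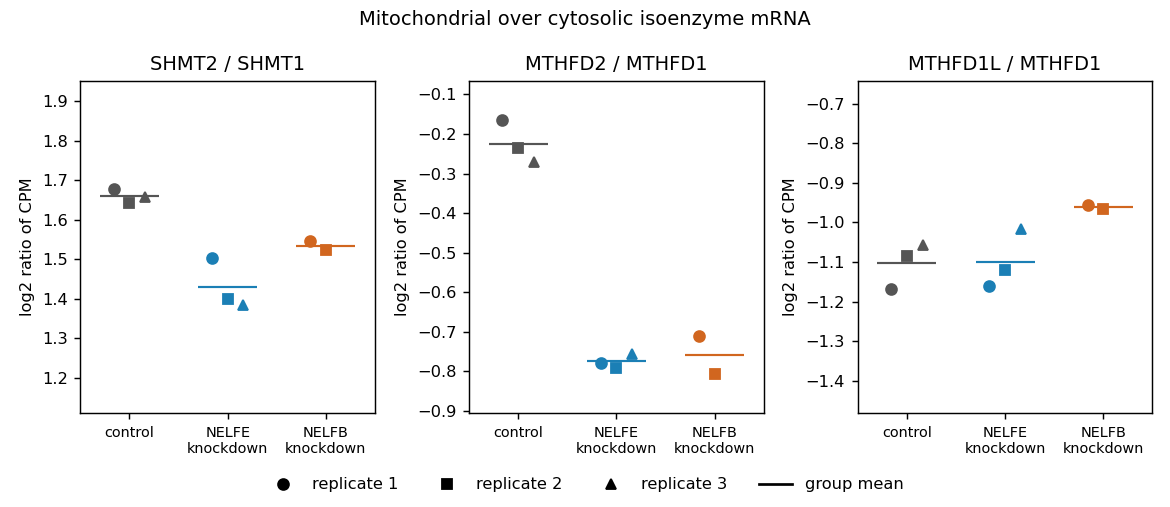
Log2 ratio of the mitochondrial to the cytosolic isoenzyme mRNA (vertical axis, the same span in each panel) in each library, by group; symbols give the replicate number and lines the group mean. Control and knockdown libraries are apart for SHMT2 / SHMT1 and, by a pooled difference of -0.54, for MTHFD2 / MTHFD1, and overlap for MTHFD1L / MTHFD1.

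Across the 8 libraries, the log2 CPM of the 8 well-expressed enzymes correlated with each other at a median Pearson r of 0.933 over 28 pairs (0.734 for SHMT2 with MTHFD1L, 0.986 at the highest). These are descriptions over libraries that share their groups. After subtraction of the group means the median was 0.598, and MTHFD1 and MTHFD1L still followed each other closely (r = 0.998) while SHMT2 and MTHFD1L did not (r = -0.010). For MTHFD1 and MTHFD1L alike, replicate 3 was the highest control library and the highest NELFE knockdown library. Correlations without these libraries were not computed. The gene most like MTHFD2 among 12668 others was FLAD1 (r = 0.998), followed by the nucleolar methyltransferase FBL and the small nucleolar RNA host gene SNHG1. For PSAT1 these were UBE2T, POLE2 and the tyrosyl-tRNA synthetase YARS1 (r from 0.995 to 0.996), and for SHMT2 they were NPM3, NRN1 and the alanyl-tRNA synthetase AARS1. MTHFD1L was most like the cell cycle genes CHEK1 and CCNA2 and ZNF107 (r from 0.990 to 0.996), MTHFD1 like the replication helicase subunit MCM7, and PSPH like RNF168 and AHCY.

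The rest of the pathway was examined next. Of 43 further genes of folate, glycine, methionine, cysteine and serine metabolism, 37 passed the filter on low counts, 9 of these fell and 3 rose in the pooled comparison, where 12.7% of all genes tested were called lower and 13.3% higher, and their median log2 fold change was -0.067. How the calls of these further genes depend on single libraries was not followed gene by gene. In the cytosolic folate cycle ATIC, a folate-dependent enzyme of purine synthesis, was the 1 gene called among 6 tested, with -0.26 (edgeR adjusted p = 0.0152). ATIC was not called in the NELFE knockdown alone (edgeR adjusted p = 0.0689). TYMS and GART had log2 fold changes of -0.094 and -0.085 and were not called.

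Among 7 further mitochondrial genes tested, the formyltransferase MTFMT fell (log2 fold change -0.24, adjusted p = 0.0382, edgeR) and MTHFD2L rose. MTFMT was not called in the NELFE knockdown alone (edgeR adjusted p = 0.14). MTHFD2L, a mitochondrial paralog of MTHFD2, was at 23.2, 23.9 and 21.5 CPM in control libraries, at 29.0, 34.7 and 31.7 CPM in the NELFE knockdown and at 30.2 and 34.8 CPM in the NELFB knockdown. Every knockdown library was above every control library, the reverse of MTHFD2, with a log2 fold change of 0.49 ± 0.0875 (SE, edgeR adjusted p = 0.00265). The serine carrier SFXN1 and the folate carrier SLC25A32 had values of -0.11 and -0.14 and were not called. Of the glycine cleavage system, none of the 3 genes tested was called by edgeR or had an unadjusted p under 0.05, and GLDC had 0 to 3 reads in any library.

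For folate uptake and retention, the carrier SLC19A1 and the polyglutamating enzyme FPGS fell in the pooled comparison, each by 0.27 or 0.26 on the log2 scale (adjusted p = 0.0408 and 0.0197, edgeR). SLC19A1 was called in neither knockdown alone (adjusted p = 0.0963 for NELFE and 0.136 for NELFB, edgeR). FPGS was not called in the NELFE knockdown alone (edgeR adjusted p = 0.0764). The folate receptor FOLR1 rose by 1.14 (edgeR adjusted p = 0.0296) from 7 to 13 reads in control libraries to 17 to 38 in knockdown libraries. FOLR1 was not called in the NELFE knockdown alone (edgeR adjusted p = 0.102). In the methionine cycle AHCY, which hydrolyses S-adenosylhomocysteine, was the 1 gene called of 5 tested, with a log2 fold change of -0.44 (edgeR adjusted p = 0.0012). CBS, which channels homocysteine to cysteine, fell by 0.28 in the pooled comparison (edgeR adjusted p = 0.0307). CBS was called in neither knockdown alone (adjusted p = 0.0972 for NELFE and 0.0697 for NELFB, edgeR).

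Of 7 genes tested that transport or use serine and glycine, 3 fell and 1 rose (12.7% and 13.3% of all genes tested). SLC1A5 and SLC1A4, transporters that carry serine among other neutral amino acids, fell by 0.95 and 0.68 on the log2 scale (adjusted p = 1.45e-05 and 0.000466, edgeR). SLC1A5 was at 214, 219 and 224 CPM in control libraries and between 106 and 124 CPM in the 5 knockdown libraries, with a wide gap between them. The glycine transporter SLC6A9 fell by 0.81 (edgeR adjusted p = 0.000236), and SDSL, a serine dehydratase-like gene, rose by 0.69 (edgeR adjusted p = 0.0164). Of 5 glycolytic genes around the branch to serine, ENO1 fell by 0.31 (edgeR adjusted p = 0.0202), and GAPDH, PGK1, PGAM1 and PKM, with values from -0.16 to -0.084, were not called. SDSL and ENO1 were not called in the NELFE knockdown alone (adjusted p = 0.0627 and 0.0818, edgeR).

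**Figure D4:**
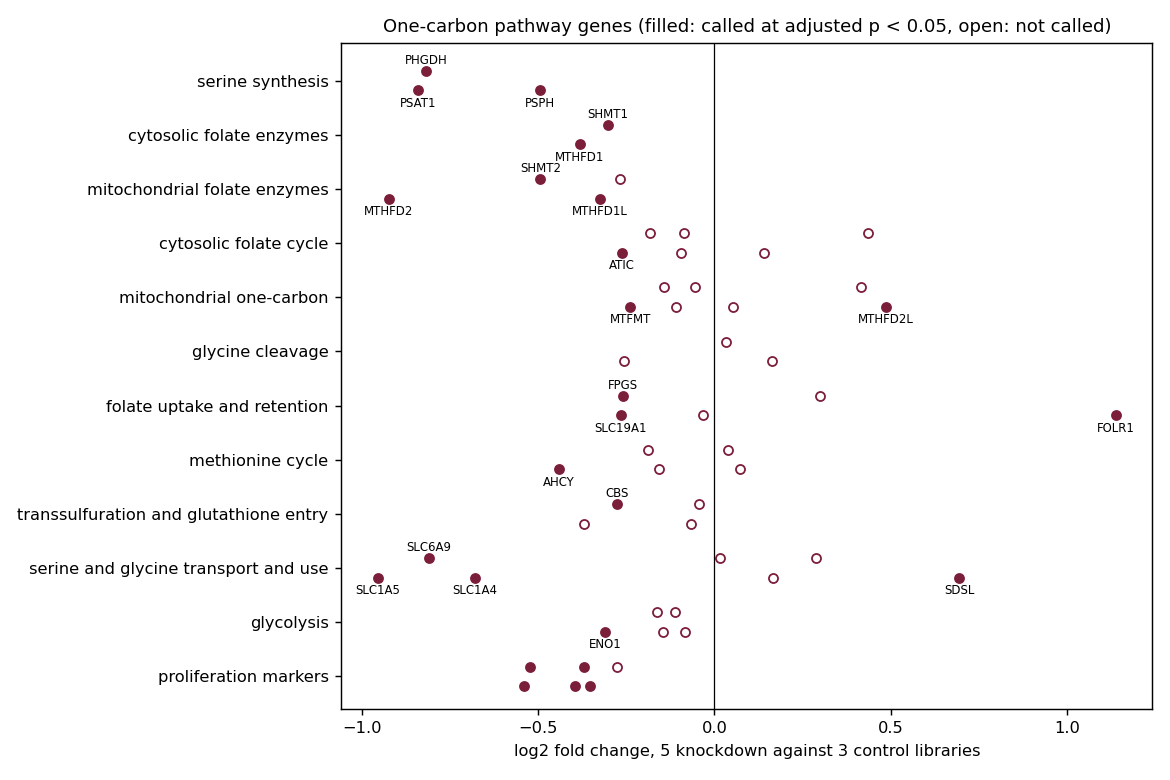
Log2 fold change of the 5 knockdown against the 3 control libraries (horizontal axis) for tested genes of each list; filled points were called at an adjusted p under 0.05, open points were not. The 3 serine synthesis enzymes lie between -0.84 and -0.50, called genes of other lists lie on both sides of 0, and MTHFD2L, at 0.49, lies opposite MTHFD2.

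Known transcriptional regulators of these enzymes were measured beside them. ATF4, the amino acid response factor that activates serine synthesis genes, was at 360, 392 and 393 CPM in control libraries, 250, 252 and 283 CPM in the NELFE knockdown and 255 and 233 CPM in the NELFB knockdown. ATF4 mRNA fell in the pooled comparison with a log2 fold change of -0.58 ± 0.071 (SE, edgeR adjusted p = 0.00035). NFE2L2 rose by 0.51 (edgeR adjusted p = 0.0112), and was narrowly not called in the NELFE knockdown alone (edgeR adjusted p = 0.051). MYC ranged from 656 to 1259 CPM among control libraries and from 608 to 1247 CPM among knockdown libraries, with a log2 fold change of 0.14 (edgeR adjusted p = 0.741).

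Proliferation markers moved with the enzymes. Of 6 markers, 5 fell, where 12.7% of all genes tested were called lower, with a median log2 fold change of -0.38. TOP2A was the most abundant and none was at 0, and PCNA was not called (-0.28, adjusted p = 0.0994, edgeR). Their summed level was 3008, 3170 and 3190 CPM in control libraries, 2240, 2490 and 2615 CPM in the NELFE knockdown and 2134 and 2443 CPM in the NELFB knockdown. The part of ATF4 mRNA, or of proliferation, in the decrease of the enzymes was not tested.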

How the data were processed

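The deposited values are raw counts. Per the labels and the methods, the authors checked reads with FastQC 0.11.6, aligned single-end reads of 65 bases to GRCh38 with STAR 2.5.4a and counted uniquely aligned reads per Gencode v24 gene, unstranded, 1 column per library. Symbols, transcript lengths and overlaps came from GENCODE v44 by Ensembl identifier, which covered 99.9% of the counts. Tests were quasi-likelihood fits (robust) of edgeR 4.0.16 under R 4.3.3 after filterByExpr and TMM scaling. A gene was called where its Benjamini-Hochberg adjusted p over all genes was under 0.05. The pooled comparison used a 2-group model and the others a 3-group model. CPM are TMM-normalized. Ratios used a prior count of 0.5 and an exact permutation test (the smaller tail doubled). Scripts were tested on simulated data.
Deviations of same-numbered control and NELFE libraries from their group means correlated at 0.462, 0.104 and 0.682, and those of control and NELFB libraries at -0.067 and -0.027. By the rule used (at least 3 pairs, each over 0.1) the numbers pair control with NELFE libraries, as found in the data rather than stated. The value of 0.104 only just passes that rule, and the replicate block was fitted over all libraries, those of NELFB included. NELFE and NELFB libraries correlated at 0.143 and 0.342, but share only 2 numbers, too few for that rule.
The enzymes, gene lists and tests were chosen with earlier results of these data known. Named are all 9 enzymes, the targets, list genes called in the pooled comparison (up to 3 with values per list), others as not called, and the genes most correlated with an enzyme (average log2 CPM of at least 1). Alternatives were DESeq2 1.42.0, its size factors, no filter, a minimum of 10 counts per library, a 3-group model, the replicate block, each library left out, and a prior count of 2. The removal of control and NELFE replicates 3 together, the permutation p from absolute differences and the union exon length were added after the data were seen.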

Additional observations from a re-analysis of the deposited data

Results flagged for a closer look

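NELFE knockdown replicate 3 stood apart from the other 4 knockdown libraries in 3 of 13 quantities examined (the CPM of the 9 enzymes and 4 ratios). Chance flags about 1 in 20 groups, but these quantities are not independent: within groups PSAT1, MTHFD1 and MTHFD2 correlated at 0.909 to 0.954 and the ratios use the same genes, so the 3 flags, all from 1 library, cannot be counted as separate events. Its gap to the next library, as a share of the range over the 5 knockdown libraries, was 0.855 for PSAT1, 0.780 for MTHFD2 and 0.711 for MTHFD1, against a critical value of 0.710. In each case this library was the highest, at 243, 162 and 273 CPM, and still below every control library. Control replicate 3 was likewise the highest control library for these 3 genes, at 382, 269 and 325 CPM. Without both libraries the pooled log2 fold changes were -0.86, -0.97 and -0.40, and all 3 genes were called by edgeR.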

How the results depend on the processing

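PHGDH, PSAT1, PSPH, SHMT2, MTHFD1 and MTHFD2 were called lower in the pooled comparison under all 15 alternatives, SHMT1 under 14 and MTHFD1L under 9. With each library left out in turn, 6 to 8 enzymes were called in the pooled comparison, 5 to 8 in the NELFE and 5 to 8 in the NELFB knockdown. The differences in log2 ratio stayed between -0.21 and -0.17 for SHMT2 with SHMT1, -0.57 and -0.51 for MTHFD2 with MTHFD1, and 0.026 and 0.088 for MTHFD1L with MTHFD1. With a replicate block, taken within numbers, they were -0.20, -0.54 and 0.063. Taking the permutation p from absolute differences left the values of -0.19 and -0.54 as they were and brought their adjusted p from 0.0536 to 0.0268. Both forms of this p ignore the replicate numbers.
Counts over all genes depended on single libraries. Without control replicate 2, lower calls were 1328 (pooled), 551 (NELFE) and 805 (NELFB). In the NELFE knockdown they were 429 and 452 without NELFE knockdown replicates 1 and 2 and 778 without NELFB knockdown replicate 1, and in the NELFB knockdown 223 and 491 without NELFB knockdown replicates 1 and 2. With 1 left out they ranged from 1328 to 2599 lower and 1360 to 2526 higher (pooled), 429 to 1503 and 561 to 1620 (NELFE), 223 to 2098 and 380 to 2218 (NELFB), and 2 to 34 and 24 to 47 between the knockdowns (34 without NELFE knockdown replicate 3). The replicate block gave 2355 lower and 2408 higher in the NELFE knockdown, 2312 lower in the NELFB knockdown, and 126 and 69 between the knockdowns, where DESeq2 gave 36 lower, no filter 95 lower and 66 higher, at least 10 counts in every library 8 lower, and the removal of control and NELFE replicates 3 together 82 lower and 59 higher. The cause was not tested.
ALDH1L2 changed sign without control replicate 1 (0.32 pooled, 0.11 NELFE, 0.59 NELFB), and in the NELFB knockdown also with the replicate block (0.054) and without NELFB knockdown replicate 1 (0.18). With 1 library left out it ranged from -0.51 to 0.32, -0.99 to 0.11 and -0.25 to 0.59, and without control and NELFE replicates 3 it was -0.66, -1.24 and -0.26. Between the knockdowns, MTHFD1L changed sign with the replicate block (-0.10), without NELFE knockdown replicate 3 (-0.13) and without control and NELFE replicates 3 (-0.12), and PSAT1 without NELFE knockdown replicate 3 (-0.0042). With 1 library left out they ranged from -0.13 to 0.092 and -0.0042 to 0.24. None of these values was called by edgeR.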
